A study of Mus musculus with 2 samples.

Results

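The regions described here are stretches of methylated DNA that lay upstream of a gene without touching any annotated transcript, in the cortical plate (CP) and the ventricular and subventricular zone (V/SVZ) of the mouse embryo. A peak of enrichment over control on chromosomes 1 to 19 was taken as an upstream flank peak if at least 1 of its annotation lines placed it upstream of a transcript, at most 10000 bp away, and no line placed it over or inside a transcript. The rule used positions only, not the level of enrichment. It gave 2792 of 50968 autosomal CP peaks (5.48%, Wilson 95% interval 5.28 to 5.68%) and 2543 of 50667 autosomal V/SVZ peaks (5.02%, 4.83 to 5.21%), out of 53404 CP and 52283 V/SVZ peaks listed in all. Joined where they overlapped, they formed 3728 distinct regions, of which 1605 had a flank peak in both layers, 1187 in CP alone and 936 in V/SVZ alone.

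Both layers came from ICR mouse embryos at embryonic day 16 and were dissected by hand; no treatment or mutation is named in the labels. The CP tissue is rich in differentiating neurons and the V/SVZ tissue in neuronal progenitors, per the labels. Genomic DNA was enriched for methylated fragments with a commercial kit and sequenced (MBD-seq), with 1 library per tissue. There was thus no replicate error, no p-value is given for any difference, and the labels do not say how many embryos went into a library. They do not say what the control was either, and DNA methylation does not allow the dissected tissues to be checked against their marker genes.

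The DNA just upstream of a transcript start holds the promoter, where transcription factors and the basal machinery assemble. In vertebrate genomes CpG sites are mostly methylated, and the main exception is the CpG island, a CpG-rich stretch at the start of many genes that usually stays unmethylated. Enhancers and repeats lie farther out in the flank. Capture by a methyl-binding domain recovers fragments in proportion to their density of methylated CpG, so that a sparse CpG region gives few tags (aligned reads) even when it is methylated.

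Few flank peaks came close to a transcript. Within 200 bp of it there were 10 CP and 15 V/SVZ peaks, and 6 genes among these had a peak listed in the other layer and exactly 1 promoter window in RefSeq. The 250 bases upstream of their starts are shown because these flank peaks lie near where transcription begins, although they are not the nearest of all. The closest CP flank peak, at Adam30, had no listed V/SVZ peak and is not shown. They are from RefSeq (GRCm38.p6), written 5′ to 3′ on the strand of the gene, with each CpG in capitals. The peaks themselves are in the build mm9. Coordinates were not converted between the builds, and the transcript starts of the 2 annotations may differ.
Relt: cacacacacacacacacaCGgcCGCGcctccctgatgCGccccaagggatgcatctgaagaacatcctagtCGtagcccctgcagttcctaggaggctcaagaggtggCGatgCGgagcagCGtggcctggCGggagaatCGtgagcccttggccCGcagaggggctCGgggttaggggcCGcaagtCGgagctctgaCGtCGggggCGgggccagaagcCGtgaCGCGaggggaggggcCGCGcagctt
Oxsr1: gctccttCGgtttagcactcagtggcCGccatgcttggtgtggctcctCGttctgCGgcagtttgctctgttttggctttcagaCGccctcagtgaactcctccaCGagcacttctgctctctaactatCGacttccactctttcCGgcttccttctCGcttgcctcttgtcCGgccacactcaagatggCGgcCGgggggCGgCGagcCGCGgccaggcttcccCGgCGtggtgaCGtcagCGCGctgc
Plekhg4: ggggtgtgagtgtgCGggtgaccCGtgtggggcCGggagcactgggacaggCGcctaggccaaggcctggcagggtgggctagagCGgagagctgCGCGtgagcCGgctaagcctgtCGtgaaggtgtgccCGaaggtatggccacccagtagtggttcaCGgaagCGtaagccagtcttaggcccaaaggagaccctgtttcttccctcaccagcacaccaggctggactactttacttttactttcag
BC049730: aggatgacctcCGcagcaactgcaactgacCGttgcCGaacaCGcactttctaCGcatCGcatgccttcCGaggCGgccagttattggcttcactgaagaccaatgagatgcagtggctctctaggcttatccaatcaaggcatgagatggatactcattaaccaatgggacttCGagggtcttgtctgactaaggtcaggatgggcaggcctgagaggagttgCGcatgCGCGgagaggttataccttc
Patl2: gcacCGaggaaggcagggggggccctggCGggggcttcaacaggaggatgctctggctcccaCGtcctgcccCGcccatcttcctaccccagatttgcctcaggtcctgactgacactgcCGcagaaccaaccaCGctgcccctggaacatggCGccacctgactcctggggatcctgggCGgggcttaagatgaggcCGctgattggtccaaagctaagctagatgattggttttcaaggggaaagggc
Dcst1: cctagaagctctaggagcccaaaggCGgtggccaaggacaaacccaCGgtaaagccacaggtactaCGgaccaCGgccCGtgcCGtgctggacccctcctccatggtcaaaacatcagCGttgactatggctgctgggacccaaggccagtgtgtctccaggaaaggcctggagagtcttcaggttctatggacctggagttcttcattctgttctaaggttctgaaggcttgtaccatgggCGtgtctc

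The windows lie at chr7:100863414-100863663 on the minus strand for Relt, a receptor of the tumour necrosis factor family, and at chr9:119322428-119322677 on the minus strand for Oxsr1, a stress-responsive kinase. They lie at chr8:105374977-105375226 on the plus strand for Plekhg4, a protein with a pleckstrin homology domain, and at chr7:24709009-24709258 on the plus strand for BC049730, named Lypd10 in RefSeq. The last pair lie at chr2:122186190-122186439 on the minus strand for Patl2, an RNA-binding protein of oocytes, and at chr3:89365254-89365503 on the minus strand for Dcst1. Relt held 22 CpG sites and Oxsr1 21, Plekhg4 and BC049730 held 12 each, Patl2 9 and Dcst1 8. Over all 32851 RefSeq windows the median was 6 CpG sites, with quartiles of 2 and 16. Relt and Oxsr1 thus lay above the upper quartile (85.2% and 83.7% of windows had fewer), and the other 4 genes lay between the median and that quartile. These counts cover the whole window, while a flank peak begins only at its distance from the transcript. If both annotations place the start alike, 126 bases in CP and 92 in V/SVZ lay beyond that distance for Relt. For Plekhg4 it was 111 bases in V/SVZ, and for Oxsr1, BC049730, Patl2 and Dcst1 at least 192. CpG sites were not counted in that part alone.

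At Relt the CP peak had 24 tags 124 bp from the transcript (mm9, chr7:108012051-108012677), against 50 tags 158 bp away in V/SVZ (chr7:108012085-108012610). The ratio of CP to V/SVZ tags was 0.48 (exact binomial 95% interval 0.282 to 0.796). Relt was among 22 CP flank peaks whose interval lay wholly below 1. Oxsr1 had 10 CP tags 23 bp from the transcript and 7 V/SVZ tags 25 bp from it, a ratio of 1.43 (0.491 to 4.42). At the other 4 genes the peak of 1 layer stopped short of the transcript while the peak of the other layer ran across its start, so that only 1 layer had a flank peak by the rule. Plekhg4 had 139 CP tags in a peak over the start and 64 V/SVZ tags in a flank peak 139 bp away. BC049730 had 12 CP tags over the start and 10 V/SVZ tags 10 bp away, and Patl2 had 23 CP tags over the start and 7 V/SVZ tags 53 bp away. Dcst1 was the other way round, with 26 CP tags 58 bp away and 23 V/SVZ tags in a peak over the start.

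Tags are plain counts of the reads of each library within its own peak, and the sources used here do not give the total reads of a library. Ratios were therefore not scaled by depth. The median ratio of CP to V/SVZ tags over all 32326 autosomal CP peaks shared with V/SVZ was 1.81, and it stands as the level of an average peak pair. All intervals reflect counting error alone, and since reads are not independent molecules they can be too narrow. Both control lists end at a lowest fold over control, 14.71 in CP and 11.48 in V/SVZ, and hold 77.0% of the numbered CP peaks and 89.2% of the numbered V/SVZ peaks. A flank with no listed peak in a layer may therefore still carry tags there.

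The deposited distances were checked by rebuilding transcript starts. Of 4054 transcripts with upstream lines from 2 or more peaks, 99.9% gave a single start within 1 bp, and the strand so obtained was that of RefSeq for 3137 of 3139 transcripts compared. A further 1857 CP and 2052 V/SVZ peaks had an upstream line but were left out because they overlapped another transcript. Of the flank peaks kept, 507 in CP and 473 in V/SVZ also lay downstream of a neighbouring gene. The tables list no upstream line beyond 10 kb, so nothing can be said of peaks just outside that limit. The farthest CP flank peaks were upstream of Bxdc5 (9999 bp, 11 tags), Klhdc7a (9995 bp, 14 tags) and Jund (9990 bp, 8 tags), and the farthest V/SVZ ones upstream of Klhdc7a (10000 bp, 13 tags), Ccdc114 (9994 bp, 14 tags) and Mmel1 (9992 bp, 8 tags). At the near limit, the closest CP peak stopped 4 bp from Adam30, a member of the ADAM metalloprotease family, with 13 tags, and the closest V/SVZ peak 10 bp from BC049730.

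Upstream flank peaks thinned out toward the transcript start. The first 500 bp held 38 CP and 54 V/SVZ peaks, and the next 500 bp held 113 CP and 100 V/SVZ peaks. The other 18 steps of 500 bp out to 10 kb held a median of 146.5 CP peaks (113 to 175) and 133.5 V/SVZ peaks (108 to 158). The first step thus had 0.259 of the median count in CP and 0.404 of it in V/SVZ, and was the lowest of all 20 in both layers. In finer steps of 250 bp the CP counts outward were 13, 25, 50, 63, 70, 73, 79 and 68, and the V/SVZ counts were 16, 38, 47, 53, 62, 56, 72 and 62. The depletion therefore faded over about the first 1 kb and the counts were level beyond it.

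The flank on the other side of genes had no such gap. Peaks in the downstream flank, chosen by the mirror rule without those that were also upstream of a gene (2226 in CP and 2319 in V/SVZ), numbered 126 in CP and 141 in V/SVZ in the first 500 bp beyond the transcript end. The other 18 downstream steps past 1 kb had medians of 111 in CP (79 to 134) and 114 in V/SVZ (95 to 128). Peaks that crossed the transcript start or end were left out on both sides by the same rule, and 384 CP and 345 V/SVZ peaks lay over a transcript start.

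**Figure D1:**
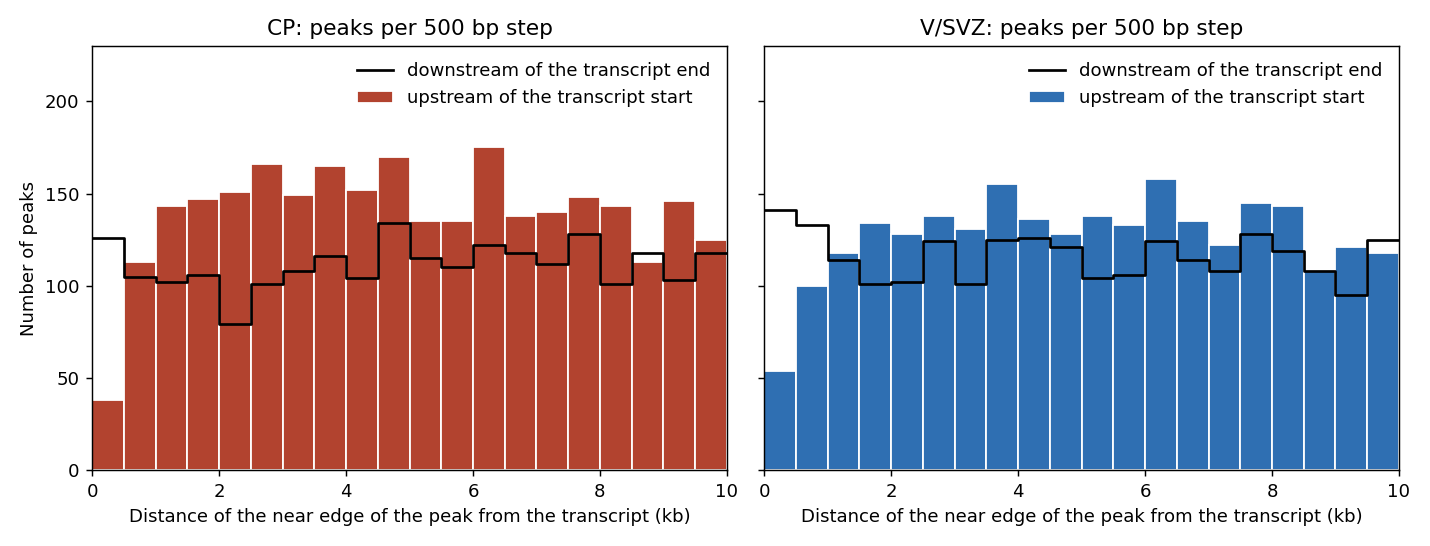
Number of peaks (vertical axis) against the distance of the near edge of the peak from the transcript in kb (horizontal axis), in steps of 500 bp, for CP (left) and V/SVZ (right). Bars are upstream flank peaks and the black line is the downstream flank; the first upstream bar stands at 38 in CP and 54 in V/SVZ, against 126 and 141 downstream.

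By distance range, 151 CP peaks (5.41%, 4.63 to 6.31%) and 154 V/SVZ peaks (6.06%, 5.19 to 7.05%) lay within 1 kb. Between 1 and 2 kb there were 290 CP (10.4%) and 252 V/SVZ peaks (9.91%), and between 2 and 5 kb 953 CP (34.1%) and 816 V/SVZ peaks (32.1%). The outer range of 5 to 10 kb held 1398 CP (50.1%) and 1321 V/SVZ peaks (51.9%). The intervals of CP and V/SVZ overlapped in each range.

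Tags in a flank peak ran between 7 and 1064 in CP, with a median of 16, and between 6 and 756 in V/SVZ, with a median of 11. The median over all autosomal peaks was 17 in CP and 11 in V/SVZ. Many flank peaks were small: 668 CP peaks (23.9%) and 1058 V/SVZ peaks (41.6%) had under 10 tags, and 119 CP and 43 V/SVZ peaks had at least 100. The median length was 359 bp in CP (203 to 1958) and 345 bp in V/SVZ (202 to 2226). The authors' fold over control, a value of each list alone, had a median of 27.51 in CP and 30 in V/SVZ. Closeness to the gene made little difference to size. Median tags were 14, 16, 15 and 16 in CP and 10, 11, 11 and 11 in V/SVZ, going outward through the 4 ranges. Per 100 bp of peak these medians were 4.2, 4.12, 4.10 and 4.21 tags in CP and 2.96, 3.26, 3.07 and 3.04 tags in V/SVZ.

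Peaks over a transcript start were larger than the flank peaks. Their median was 40.5 tags in CP and 22 tags in V/SVZ, over median lengths of 616 bp in CP and 554 bp in V/SVZ, and 6.97 CP and 4.05 V/SVZ tags per 100 bp. The flank peaks within 1 kb of a start, with medians of 14 CP and 10 V/SVZ tags, resembled the outer flank in size more than they resembled the peaks over the start. The classes were set by whether a peak touched a transcript, which a long peak does more readily. Length and tags are thus not independent of the class, and how much of the size difference this makes was not tested. The downstream flank had medians of 16 CP and 11 V/SVZ tags, equal to those of the upstream flank.

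The strongest flank peaks within 1 kb of a transcript lay at the following genes. D17H6S56E-3 had 256 tags in CP and 116 tags in V/SVZ, 559 bp from the transcript in CP, a ratio of 2.21 (1.77 to 2.77). Dpm1, the catalytic subunit of dolichol-phosphate mannose synthase, had 176 CP tags 810 bp upstream (mm9, chr2:168056689-168057549) and 40 V/SVZ tags, a ratio of 4.40 (3.11 to 6.37). Gm833 had 159 CP and 61 V/SVZ tags, a ratio of 2.61 (1.93 to 3.56). The interval of Dpm1 lay wholly above the median of 1.81 for all shared peaks, as did that of Gm833, and both were overlapped by a peak of the direct CP over V/SVZ list. That list comes from the same reads as the ratios, and each of its peaks had a false discovery rate of 100%, so such an overlap is no separate support. In V/SVZ the strongest were Acsm3, a medium-chain acyl-CoA synthetase, with 139 CP and 158 V/SVZ tags (0.88, 0.695 to 1.11), and 9130017N09Rik, with 150 V/SVZ tags 980 bp away and no listed CP peak. Tiam2, an activator of the GTPase Rac, had 218 CP tags 1018 bp away and 133 V/SVZ tags 960 bp away, a ratio of 1.64 (1.32 to 2.05). Its peaks overlapped although they fell on different sides of the 1 kb boundary.

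Between 1 and 2 kb, Gas1 led in CP. It encodes a membrane-anchored co-receptor for Hedgehog ligands and is expressed in progenitors of the developing brain. Its flank held 235 CP tags 1923 bp upstream (mm9, chr13:60280649-60281085) and 96 V/SVZ tags, a ratio of 2.45 (1.92 to 3.14). The interval lay above the autosomal median, and a CP over V/SVZ peak overlapped it. Ttc9b, a tetratricopeptide repeat protein, had 194 CP and 129 V/SVZ tags (1.50, 1.20 to 1.89). Usp19, a deubiquitinating enzyme, had 217 V/SVZ tags in a peak of 2226 bp, the longest V/SVZ flank peak, and Ifi30, a lysosomal thiol reductase, had 142 V/SVZ tags. Neither had a listed CP peak, and their folds of 12.68 and 12.96 were below the lowest fold listed in CP.

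Between 2 and 5 kb, Dmpk, the kinase gene of myotonic dystrophy, had 350 CP and 100 V/SVZ tags at 2521 bp in both layers, a ratio of 3.50 (2.79 to 4.42). Mrpl34, a mitochondrial ribosomal protein, had 338 CP and 145 V/SVZ tags (2.33, 1.91 to 2.85). Flt3, a receptor kinase of blood progenitors, had 261 CP and 174 V/SVZ tags (1.50, 1.23 to 1.83). Dmpk and Mrpl34 had intervals above the autosomal median, and that of Flt3 reached just past it. Wfdc5 had 206 CP and 178 V/SVZ tags (1.16, 0.942 to 1.42), and Tbxa2r, the thromboxane receptor, had 219 V/SVZ tags and no listed CP peak, with a fold of 13.71.

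The flank peaks with most tags lay between 5 and 10 kb. Kif3c, a kinesin motor subunit, had 1064 CP and 755 V/SVZ tags at 7365 bp (mm9, chr12:3356869-3357766 in CP), a ratio of 1.41 (1.28 to 1.55). Abca1, the cholesterol efflux transporter, had 846 CP and 565 V/SVZ tags (1.50, 1.34 to 1.67). Fmnl3, a formin that nucleates actin filaments, had 740 CP and 418 V/SVZ tags (1.77, 1.57 to 2.00). The intervals of Kif3c and Abca1 lay below the autosomal median. Both peaks were overlapped by a V/SVZ over CP peak although CP had more tags, with false discovery rates of 49.87% and 77.59%. Zdhhc2, a palmitoyltransferase, had fewer tags in CP than in V/SVZ, with a ratio of 0.856 (0.769 to 0.952). The largest peaks of the flank thus had ratios at or below that of an average pair.

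**Figure D2:**
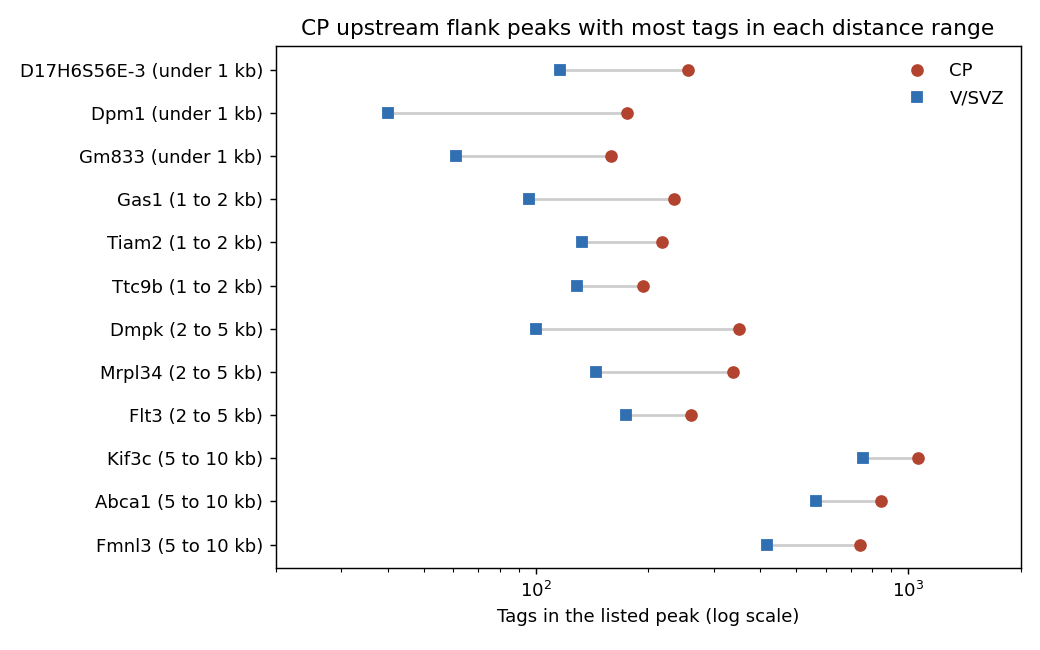
Tags in the listed peak (horizontal axis, log scale) of the 12 CP flank peaks with most tags in each distance range (3 per range, named by gene), in CP (red circles) and in the overlapping V/SVZ peak (blue squares). CP lies to the right at each gene, by a ratio between 1.41 at Kif3c and 4.40 at Dpm1.

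Most flank peaks of one layer were also listed in the other. Of the CP flank peaks, 1611 (57.7%, 55.9 to 59.5%) overlapped a V/SVZ peak by at least 1 bp, against a background of 63.4% of all autosomal CP peaks. Of the V/SVZ flank peaks, 1615 (63.5%, 61.6 to 65.4%) overlapped a CP peak, against a background of 64.1%. The CP share was thus below that of the other autosomal CP peaks (63.8%, 63.3 to 64.2%) by more than counting error, and the V/SVZ share was near its background. The partner was itself a flank peak in 1605 CP cases (99.6%) and 1607 V/SVZ cases (99.5%). Over the transcript start 79.9% of CP peaks (75.7 to 83.6%) and 82.6% of V/SVZ peaks (78.3 to 86.2%) were shared. Within 1 kb upstream of it the shares were 55.0% in CP (47.0 to 62.7%) and 53.9% in V/SVZ (46.0 to 61.6%), so that the nearest flank was shared less often than the start itself by more than counting error. This comparison was not matched on tags. Peaks over the start had medians of 40.5 CP and 22 V/SVZ tags, against 14 CP and 10 V/SVZ tags within 1 kb, so position and peak size cannot be told apart here. Farther out the CP shares were 55.9%, 57.3% and 58.7%, and the V/SVZ shares 64.7%, 66.9% and 62.3%.

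Sharing followed the number of tags. CP flank peaks of up to 10 tags were shared in 27.8% of 841 cases, those of 11 to 20 tags in 49.9% of 871, those of 21 to 50 tags in 83.0% of 754 and those above 50 tags in 96.9% of 326. V/SVZ flank peaks were shared in 47.8% of 1247 cases up to 10 tags, in 75.3% of 749 at 11 to 20 tags, in 84.8% of 407 at 21 to 50 tags and in 78.6% of 140 above 50 tags. Shared flank peaks had a median of 25 tags in CP and 13 in V/SVZ, and unshared ones 10 in CP and 8 in V/SVZ. In the same tag ranges the other autosomal CP peaks were shared in 32.0%, 56.0%, 84.7% and 97.1% of cases. The gap between the CP flank and other CP peaks was thus seen at up to 20 tags, where the intervals were 24.9 to 30.9% and 46.6 to 53.3% for the flank and 31.2 to 32.8% and 55.2 to 56.8% for the others. Above 20 tags the intervals overlapped. The other autosomal V/SVZ peaks were shared in 48.7%, 73.6%, 83.7% and 81.9% of cases, each inside the interval of the V/SVZ flank peaks.

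The unshared V/SVZ flank peaks with most tags sat near the low end of fold. Cabyr, a calcium-binding protein of the sperm tail, had 556 V/SVZ tags at a fold of 13.4. Glrx5, a mitochondrial glutaredoxin of iron-sulfur cluster assembly, had 536 V/SVZ tags at a fold of 13.03. Gtpbp3, a mitochondrial GTP-binding protein, had 346 V/SVZ tags at 14.94. The folds of Cabyr and Glrx5 were under the lowest fold listed in CP, so a CP peak of the same fold would not be listed. Without V/SVZ peaks under that fold, 66.7% of 2316 V/SVZ flank peaks were shared. The unshared CP flank peaks with most tags were those of Fam113b, with 115 tags 1262 bp upstream, and Angptl6, an angiopoietin-like secreted protein, with 87 tags 9698 bp upstream. Their folds of 19.68 and 16.46 were also low, under the CP flank median of 27.51.

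The authors also called peaks of each layer directly over the other. CP flank peaks were overlapped by a CP over V/SVZ peak in 858 cases (30.7%, 29.0 to 32.5%), against a background of 27.6%, and by a V/SVZ over CP peak in 315 cases (11.3%), against a background of 11%. V/SVZ flank peaks were overlapped by a V/SVZ over CP peak in 986 cases (38.8%, 36.9 to 40.7%), against a background of 36.3%, and by a CP over V/SVZ peak in 246 cases (9.67%), against a background of 10%. The own-layer shares of the other autosomal peaks were 27.4% in CP and 36.1% in V/SVZ, a few percentage points lower, and CP peaks with no gene within 10 kb reached 30.2%. In the same tag ranges as above, going up, the own-layer shares were 33.8%, 27.4%, 29.3% and 35.0% for the CP flank and 27.2%, 24.8%, 25.5% and 36.3% for the other CP peaks. Their intervals were apart at up to 10 tags (30.7 to 37.0% and 26.5 to 28.0%) and overlapped in the other ranges. The V/SVZ flank had 47.2%, 33.4%, 26.5% and 27.9% and the other V/SVZ peaks 45.4%, 31.7%, 23.3% and 22.3%, with overlapping intervals in each range. By distance, the own-layer shares were 33.1%, 34.1%, 31.0% and 29.6% in CP and 43.5%, 36.1%, 37.6% and 39.4% in V/SVZ going outward. The intervals of the 4 ranges overlapped within each layer (26.1 to 41.0% in CP and 35.9 to 51.4% in V/SVZ for the nearest). Counting only direct peaks with a significance of at least 100, the shares were 12.6% in CP (11.5 to 13.9%), against a background of 10.9%, and 20.3% in V/SVZ (18.8 to 21.9%), against a background of 19.4%. In the CP over V/SVZ list each peak had a false discovery rate of 100% in the authors' column, which gives those calls no support. In the V/SVZ over CP list the rate ran between 0 and 89.96%, and was at most 5% for 16 of 21914 peaks. None of these overlapped a V/SVZ flank peak, and the median rate of the direct peaks at V/SVZ flanks was 67.2%.

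**Figure D3:**
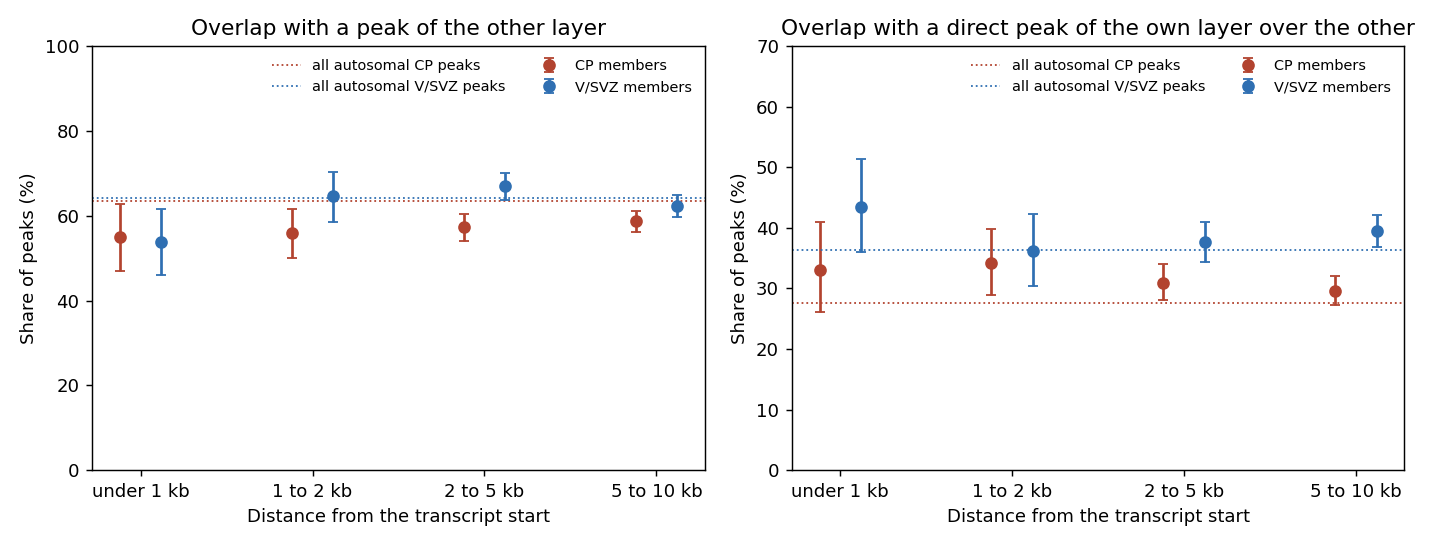
Share of flank peaks in percent (vertical axis) by distance from the transcript start, for CP (red) and V/SVZ (blue), with Wilson 95% intervals and the share over all autosomal peaks as dotted lines. On the left, overlap with a control peak of the other layer (57.7% of CP and 63.5% of V/SVZ flank peaks in all); on the right, overlap with a direct peak of the same layer over the other (30.7% of CP and 38.8% of V/SVZ flank peaks).

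The most significant direct peak in a CP flank was that of 4933421I07Rik, 7690 bp upstream, with 73 CP and 7 V/SVZ tags, a ratio of 10.4 (4.81 to 26.9). The next 5 had no listed V/SVZ peak. They were Olfr1426, an olfactory receptor, with 21 CP tags, Gzmf, a granzyme, with 28, Agt, angiotensinogen, with 19, Plk3, a polo-like kinase, with 28, and Agxt, a liver aminotransferase, with 27. In V/SVZ the most significant was Zdhhc2, followed by Trp53i11, a p53-inducible gene, with 32 CP and 88 V/SVZ tags 9505 bp upstream in V/SVZ, a ratio of 0.364 (0.235 to 0.551). Ndst3, an enzyme that modifies heparan sulfate, had 11 CP and 30 V/SVZ tags (0.367, 0.166 to 0.753). Cnnm2, a magnesium transport protein, had 35 V/SVZ tags, Gramd4 had 22 and Lat2, a signalling adaptor of blood cells, had 24 at 429 bp. These 3 had no listed CP peak.

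At the 1611 shared CP flank peaks the median ratio of CP to V/SVZ tags was 1.75 (exact binomial 95% interval of the median 1.69 to 1.81), with quartiles of 1.22 and 2.52, against 1.81 over all shared autosomal CP peaks. Going outward the median was 1.70, 1.87, 1.72 and 1.75. Peaks over the transcript start had a higher median ratio of 2.32. Fewer tags in CP than in V/SVZ were found at 227 flank peaks (14.1%, 12.5 to 15.9%), against a background of 12.9%, and a ratio of at least 4 at 102 (6.33%, 5.24 to 7.63%), against a background of 6.27%. Of the 1615 shared V/SVZ flank peaks, 225 (13.9%, 12.3 to 15.7%) had fewer tags in CP, against a background of 12.7%, and 107 (6.63%, 5.51 to 7.94%) had a ratio of at least 4, against a background of 6.85%. All 4 shares were close to their backgrounds.

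The exact interval lay wholly below 1 for 22 flank peaks (1.37%, against 1.38% of all shared peaks). The lowest ratio was at Slc19a2, a thiamine transporter, with 10 CP and 45 V/SVZ tags (0.222, 0.0999 to 0.447). Pea15a, a phosphoprotein abundant in astrocytes, had 10 CP and 42 V/SVZ tags (0.238, 0.107 to 0.482). Opalin, a membrane protein of myelinating oligodendrocytes, had 15 CP and 36 V/SVZ tags 1308 bp away in CP (0.417, 0.212 to 0.78). Tcf7, a transcription factor of the Wnt pathway, had 7 CP and 18 V/SVZ tags (0.389, 0.137 to 0.976), and Sall2, a zinc finger transcription factor, had 9 CP and 23 V/SVZ tags (0.391, 0.159 to 0.878). These genes were picked from among the 22 and not in order of ratio. Speer4a (0.286), Rhebl1 (0.3) and Ly6a (0.346), among others, had lower ratios than Tcf7, Sall2 and Opalin. Flank peaks with an interval wholly below 1 were no more frequent than over all shared peaks.

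At the high end, the interval lay wholly above 1.81 for 181 flank peaks (11.2%, against 12.3% of all shared peaks). Ptprs, a receptor tyrosine phosphatase of axons, had 50 CP and 6 V/SVZ tags 752 bp upstream (8.33, 3.57 to 23.8). Depdc1b had 49 CP and 6 V/SVZ tags (8.17, 3.49 to 23.3), Slc8a2, a sodium-calcium exchanger of neurons, had 47 CP and 7 V/SVZ tags (6.71, 3.02 to 17.6), and Cdc16, a subunit of the anaphase-promoting complex, had 84 CP and 13 V/SVZ tags (6.46, 3.58 to 12.6). All 4 were picked from among the high ratios and not in strict order. Gm14151 (6.71), Ankrd7 (6.5) and 6430704M03Rik (6.5) also stood above Cdc16. Each of the 4 was overlapped by a CP over V/SVZ peak, which comes from the same reads and is no separate support.

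**Figure D4:**
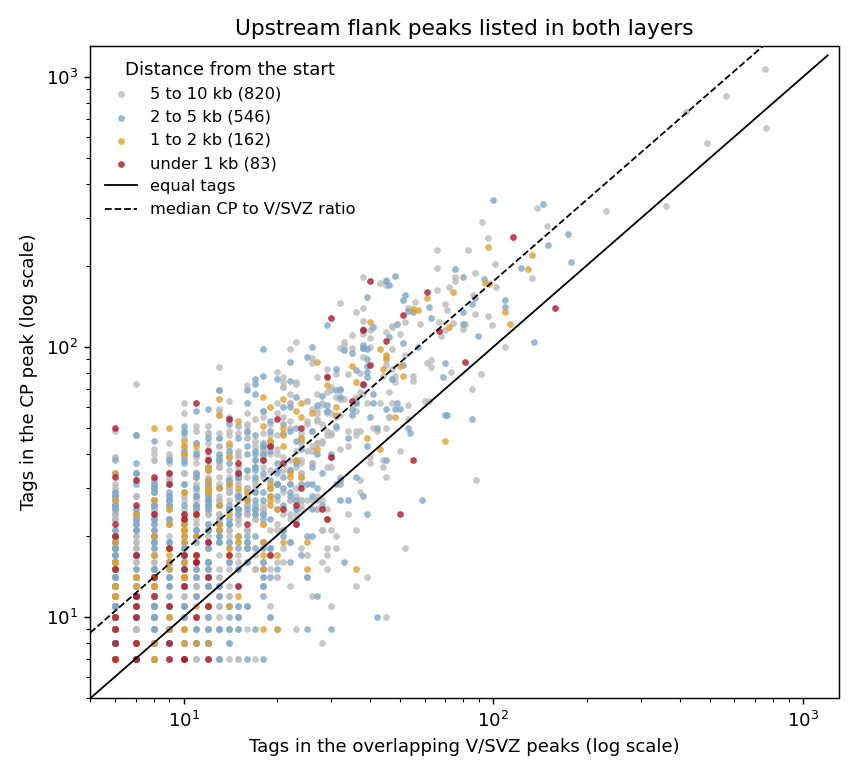
Tags in the CP flank peak (vertical axis, log scale) against tags in the overlapping V/SVZ peaks (horizontal axis, log scale) for the 1611 shared CP flank peaks, coloured by distance. The dashed line is the median ratio of 1.75 and the solid line equal tags; 227 points lie below the solid line, and the 4 distance ranges cover the same area.

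Flank peaks fell upstream of 2745 genes in CP and 2411 in V/SVZ. Of these, 2496 CP genes and 2123 V/SVZ genes had 1 flank peak, and 240 CP and 265 V/SVZ genes had 2. Rn4.5s, a gene of the small 4.5S RNA, had the most, with 4 in CP and 3 in V/SVZ. Its tags were 9, 14, 8 and 7 in CP and 11, 25 and 9 in V/SVZ, and small repeated genes of this kind can draw reads from near-identical copies. Cabp7, a calcium-binding protein, had 2 CP and 3 V/SVZ flank peaks, and so did Gnb4, a G protein subunit. Gnb4 had 26 CP and 28 V/SVZ tags at its nearest peak and 30 CP and 16 V/SVZ tags at its farthest, with ratios of 0.929 (0.523 to 1.64) and 1.88 (0.99 to 3.68) whose intervals overlapped. A peak over the gene's own start was present for 57 of the CP genes (2.08%) and 56 of the V/SVZ genes (2.32%). Among genes with a peak but no flank peak it was present for 3.65% in CP and 3.22% in V/SVZ. A peak inside the gene was present for 61.6% of the CP and 62.9% of the V/SVZ genes with a flank peak, and for 77.0% of CP and 79.3% of V/SVZ genes without one. Genes without a flank peak had to hold another peak to be in the tables, which raises their shares by construction.

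Some flank peaks lay between 2 genes. In CP 199 peaks and in V/SVZ 168 peaks were upstream of 2 or more genes. In 144 CP and 124 V/SVZ of these the genes ran away from the peak on opposite strands, so that 1 peak marked both upstream flanks. Their medians of 15 CP and 11 V/SVZ tags were close to those of all flank peaks, and 81 CP (56.25%) and 81 V/SVZ peaks (65.3%) were shared.

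The share of autosomal peaks that were flank peaks differed between chromosomes. It was highest on chromosome 19 in CP (7.54%, 6.30 to 9.01%) and on chromosome 7 in V/SVZ (6.84%, 6.01 to 7.77%). It was lowest on chromosome 14 in CP (3.78%, 3.01 to 4.72%). The number of genes per chromosome was not taken into account.

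Genes with a flank peak were then counted in 22 lists of brain, signalling and family genes that had at least 1 gene in the tables. The base is the genes with any autosomal peak in either layer, of which 2745 of 12631 (21.7%) had a CP flank peak and 2411 (19.1%) a V/SVZ flank peak. The counts are descriptions, with no test, and small lists move by several percent with 1 gene. A gene enters the base only by having a peak, so a share also depends on how often the genes of a list have other peaks. Gene length was not taken into account.

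Among radial glia and progenitor genes, 3 of 12 had a CP flank peak and 2 a V/SVZ flank peak. Beside Gas1 these were Fabp7, the brain lipid-binding protein of radial glia, and Hes5, the Notch effector that keeps progenitors undifferentiated. Fabp7 had 39 CP tags 2552 bp upstream and no listed V/SVZ peak. Hes5 had 31 CP and 32 V/SVZ tags, a ratio of 0.969 (0.572 to 1.64) that lay below the autosomal median with its whole interval. A V/SVZ over CP peak overlapped it, with a false discovery rate of 88.39%. That peak comes from the same reads and is no separate support. None of 7 genes of intermediate progenitors had a flank peak in either layer. Of 35 genes of postmitotic and projection neurons, 3 had one in CP and 2 in V/SVZ. Grin2b, an NMDA receptor subunit, had 25 CP tags 961 bp upstream and no listed V/SVZ peak. Mapt, the microtubule protein tau, had 13 CP and 6 V/SVZ tags (2.17, 0.768 to 6.95). Cdh13 had 12 CP tags 7980 bp upstream and no listed V/SVZ peak. Crym went the other way, with 11 V/SVZ tags 71 bp upstream and no listed CP peak. The V/SVZ over CP peak that overlapped it had a false discovery rate of 34.54%. Interneuron genes had 2 CP and 1 V/SVZ of 7, with Pvalb, the calcium buffer parvalbumin, at 10 CP and 8 V/SVZ tags in peaks that did not overlap. Of 9 glial genes, 3 had a CP and 1 a V/SVZ flank peak, and Gfap, the astrocyte filament protein, had 12 CP and 6 V/SVZ tags (2.00, 0.695 to 6.49). The list of postmitotic and projection neurons stood below the share over all genes in both layers (8.57% in CP and 5.71% in V/SVZ).

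Genes of microglia, vessels and blood had a flank peak in 10 of 20 cases in CP and 11 in V/SVZ, a larger share than over all genes. Epb4.2, a membrane skeleton protein of red cells, had 122 CP and 81 V/SVZ tags (1.51, 1.13 to 2.02). Itgam, an integrin of microglia and macrophages, had 64 CP tags 1906 bp upstream and 13 V/SVZ tags (4.92, 2.68 to 9.74). Hbb-b1, an adult beta globin, had 40 CP and 10 V/SVZ tags (4, 1.97 to 8.97), and globin genes have close copies that can share reads. Cdh5, the cadherin of endothelium, had 31 CP and 19 V/SVZ tags (1.63, 0.893 to 3.06). Hba-a1, another globin gene, had 25 CP and 18 V/SVZ tags (1.39, 0.728 to 2.70). Tmem119 had 16 V/SVZ tags 2770 bp upstream and no listed CP peak. Itgam and Hbb-b1 had intervals above the autosomal median, those of Epb4.2, Cdh5 and Hba-a1 included it, and the median ratio over the 8 shared peaks of the list was 2.04.

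Members of the Notch and Wnt pathways had a CP flank peak in 17 of 49 cases and a V/SVZ flank peak in 16. The Wnt receptor gene Fzd9 had 100 CP and 40 V/SVZ tags (2.50, 1.72 to 3.70). Fzd5, another Frizzled receptor, had 43 CP tags 4832 bp upstream and no listed V/SVZ peak. Among targets, Axin2, a feedback inhibitor of Wnt signalling, had 37 CP and 24 V/SVZ tags (1.54, 0.898 to 2.69). Hey1, a Notch effector, had 44 CP and 9 V/SVZ tags 6252 bp upstream in CP (4.89, 2.36 to 11.4). The Notch ligand gene Jag2 had 24 V/SVZ tags and no listed CP peak. Hey1 and Hes5, both Notch effectors, thus stood on different sides of the autosomal median, and the median ratio of the list's 10 shared peaks was 1.34.

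Axon guidance genes had flank peaks in 6 of 47 cases in each layer, below the share over all genes. Plxnc1, a semaphorin receptor, had 62 CP and 10 V/SVZ tags 6012 bp upstream in CP (6.20, 3.16 to 13.6). Epha2, an ephrin receptor, had 25 CP and 11 V/SVZ tags (2.27, 1.08 to 5.12), and Unc5b, a netrin receptor, had 24 CP tags 1299 bp upstream and no listed V/SVZ peak. Sema4d had 14 CP and 12 V/SVZ tags (1.17, 0.501 to 2.76). Sema6b had 20 CP and 7 V/SVZ tags 7002 bp upstream in CP. Nearer to Sema6b, at 4262 bp, a V/SVZ peak of 11 tags had no listed CP peak. The median ratio of the list's 6 shared peaks was 1.84, close to the autosomal median of 1.81. Among 29 enzymes and readers of DNA methylation and chromatin, 7 had a CP and 8 a V/SVZ flank peak. Mbd1, a methyl-CpG binding protein, had 111 CP and 35 V/SVZ tags 7914 bp upstream in CP (3.17, 2.15 to 4.78), with its interval above the autosomal median. Dnmt3a, a de novo DNA methyltransferase, had 28 CP tags 2047 bp upstream and 11 V/SVZ tags (2.55, 1.23 to 5.67). Hdac1, a histone deacetylase, had 28 CP and 15 V/SVZ tags (1.87, 0.964 to 3.76), and Cbx2, a Polycomb protein, had 27 CP and 24 V/SVZ tags (1.12, 0.625 to 2.04). The median ratio of the 6 shared peaks of the list was 1.54.

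Imprinted genes had 7 CP and 6 V/SVZ of 52. Phlda2, a growth inhibitor of the placenta, had 28 CP and 6 V/SVZ tags (4.67, 1.90 to 13.8). Igf2r, the receptor that clears insulin-like growth factor 2, had 13 CP tags 723 bp upstream and no listed V/SVZ peak. Plagl1, a zinc finger transcription factor, had 7 CP and 12 V/SVZ tags (0.583, 0.195 to 1.61). Germline genes, whose starts are methylated in somatic cells, had flank peaks in 4 of 47 cases in each layer. Piwil4, a Piwi protein of the male germ line, had 333 CP and 361 V/SVZ tags 5615 bp upstream in CP, a ratio of 0.922 (0.792 to 1.07) with its interval below the autosomal median. Smc1b, a meiotic cohesin subunit, had 62 CP and 24 V/SVZ tags at its nearer peak (2.58, 1.59 to 4.33), and Piwil1 had 43 CP and 13 V/SVZ tags (3.31, 1.75 to 6.70).

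Among the 4 lists of over 80 genes, the chemosensory receptor families had the largest shares of genes with a flank peak, over genes with any peak. Olfactory receptors had a CP flank peak in 90 of 254 cases (35.4%) and a V/SVZ flank peak in 65 (25.6%). Vomeronasal receptors had one in 31 of 86 cases in CP (36.0%) and in 22 in V/SVZ (25.6%). Both families are expressed in sensory neurons of the nose and lie in dense genomic clusters. Olfr214 had 170 CP and 46 V/SVZ tags 4602 bp upstream in CP (3.70, 2.65 to 5.24), and V1rb3 had 98 CP and 18 V/SVZ tags (5.44, 3.27 to 9.57). Olfr316 had 81 CP and 73 V/SVZ tags (1.11, 0.799 to 1.54). The median ratio was 2.00 over 59 shared olfactory peaks and 2.10 over 19 shared vomeronasal peaks. Reads can also be split between near-identical copies in these families.

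Most other families stood nearer to the share over all genes. Zinc finger genes named Zfp had 54 CP (26.2%) and 40 V/SVZ (19.4%) of 206, solute carriers 54 CP (20.5%) and 50 V/SVZ (19.01%) of 263, and cytochromes P450 14 CP and 13 V/SVZ of 60. Zfp541 had 228 CP and 83 V/SVZ tags (2.75, 2.13 to 3.58), Slc1a5, a glutamine transporter, had 137 CP and 71 V/SVZ tags (1.93, 1.44 to 2.61), and Cyp11b2, aldosterone synthase, had 104 CP and 23 V/SVZ tags (4.52, 2.86 to 7.45). These are single peaks with many CP tags. The median ratio was 2.00 over 27 shared Zfp peaks, 1.56 over 30 shared solute carrier peaks and 1.75 over 11 shared cytochrome P450 peaks. Keratins and their associated proteins had 17 CP and 15 V/SVZ of 73, and Krt86, a hair keratin, had 122 CP and 58 V/SVZ tags (2.10, 1.53 to 2.93). Defensins had 4 CP and 9 V/SVZ of 26, and potassium channels 10 in each layer of 68. The channel gene Kcnc1 had 21 tags in each layer (1.00, 0.52 to 1.92), and the median ratio over the 5 shared channel peaks was 1.00. Clustered protocadherins had a flank peak in 1 of 56 cases in each layer, the lowest share of any list with a flank peak. The rule leaves out a peak that lies upstream of 1 transcript but inside another, so this share can be low by construction. The peaks so left out were not counted for this list. Small nucleolar RNA genes had 7 CP and 4 V/SVZ of 11, but from 3 CP peaks and 1 V/SVZ peak, since neighbouring genes shared a peak. Histone genes of the Hist clusters had 4 CP and 1 V/SVZ of 15, and Hist3h2bb had 171 CP and 97 V/SVZ tags (1.76, 1.37 to 2.29).

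**Figure D5:**
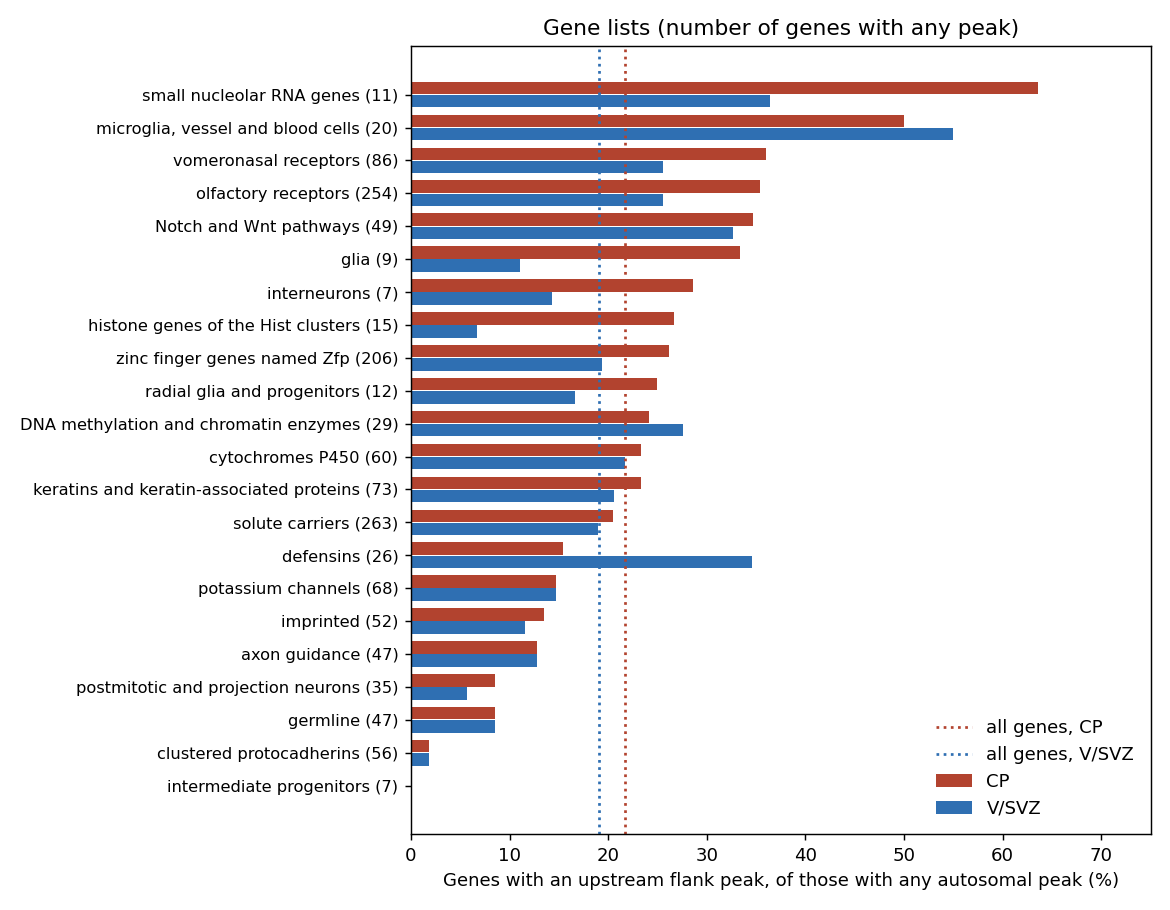
Genes with an upstream flank peak in percent of the genes of a list that had any autosomal peak (horizontal axis), for 22 lists (vertical axis, number of genes in brackets), in CP (red, upper bar) and V/SVZ (blue, lower bar). Dotted lines mark all genes, at 21.7% in CP and 19.1% in V/SVZ; olfactory receptors stand at 35.4% in CP and 25.6% in V/SVZ and clustered protocadherins near 0.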

How the data were processed

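Peaks of each MBD-seq library over a control were analysed, with the direct lists of each layer over the other. Reads were processed with CASAVA 1.8 and Bowtie and placed on mm9, per the submitters' processing notes. The column names are those of MACS, per the file headers; for MACS, neither version nor settings were given in the sources used here. In the deposited tables the tags are a count of reads, not normalized, and the significance is a score of the authors, the negative log10 of the caller's p-value times 10. The fold is the authors' ratio over local expectation and the false discovery rate the authors' percent. Each deposited control table holds 65535 lines, so peaks of low fold are not listed.

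Groups follow the tissue labels. With Python 3.11.15, pandas 2.3.3, numpy 2.4.6 and scipy 1.17.1, peaks were reduced to 1 per region, with the smallest upstream distance and the nearest gene. Overlap meant at least 1 bp with any autosomal peak of the other table. CP tags were divided by the summed tags of the V/SVZ peaks overlapped. Shares have Wilson and ratios exact Clopper-Pearson 95% intervals; the code was tested on simulated data. Genes named are those with most tags in each range, with the most significant direct peaks, nearest, farthest, with most flank peaks, and up to 4 per gene list by tags. Those picked among low and high ratios (not in strict order of ratio), by tags among unshared peaks, and the 6 sequence windows were chosen after their values were seen. Members and lists were chosen with earlier results of these data known. Of the nearest genes, 77.8% in CP and 78.6% in V/SVZ had a RefSeq promoter window, under 80%, so a comparison of CpG content over the whole set would be void and was not made.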

Additional observations from a re-analysis of the deposited data

How the results depend on the processing

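No paired analysis was possible because each tissue had 1 library. For 7 summary values (shares shared, direct and within 1 kb in each layer, and the median ratio), 19 of 29 alternative values stayed inside the interval of the reported value. Of these, the CP direct share and the CP share within 1 kb under a common lowest fold could not move, since no CP peak is lost. With an overlap of at least 50% of both peaks, 53.2% of CP and 58.3% of V/SVZ flank peaks were shared. With a common lowest fold of 14.71 in both lists the shared share was 55.2% in CP and 66.7% in V/SVZ, by construction over fewer V/SVZ peaks. With peaks of a significance of at least 100 it was 52.2% in CP and 66.3% in V/SVZ, and 5.43% of CP and 5.17% of V/SVZ flank peaks lay within 1 kb, in the opposite order to the reported 5.41% in CP and 6.06% in V/SVZ. With direct peaks of that significance only, 12.6% of CP and 20.3% of V/SVZ flank peaks were overlapped by a direct peak of their own layer. The shared share was lower in CP than in V/SVZ under each setting that was run for it. This order follows from list size and is no separate result. Nearly the same number of flank peaks was shared in each layer (1611 in CP and 1615 in V/SVZ), out of 2792 in CP and 2543 in V/SVZ. The CP list also stayed the larger with the common lowest fold (2792 against 2316) and with a significance of at least 100 (2230 against 1760). The median ratio was 1.61 with tags per bp, outside its interval of 1.69 to 1.81, and between 1.72 and 1.77 otherwise. With medians of 16 CP and 11 V/SVZ tags, single ratios have wide intervals, and leaving out a replicate was not possible.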
